A study of Mus musculus with 6 samples.

Results

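Chemokines are small secreted proteins that direct the migration of leukocytes and other cells, and 10 of them that fibroblasts can make were followed here in mouse embryonic fibroblasts (MEFs). The genes were Cxcl1, Cxcl5, Cxcl9, Cxcl10, Cxcl12, Ccl2, Ccl5, Ccl7, Ccl20 and Cx3cl1. All probe sets whose annotated symbol was exactly one of these were taken. All 10 genes were measured, by 13 of the 20380 probe sets with 1 gene, and they stand among 12393 genes in all. RNA came from wild-type MEFs, connective tissue cells grown from mouse embryos. In the starved group (3 arrays) cells had been starved for 6 h, and in the control group (3 arrays) they had been kept in normal medium. The labels name neither the nutrients or serum withdrawn nor the mouse strain and embryo age, and no genetic change separates the groups. Arrays of a group are titled as biological replicates, but whether each was its own culture is not said. The p-values therefore measure the spread between these 6 samples alone, and that spread may be technical.

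Chemokines are classed by the spacing of their first cysteines into CXC, CC and CX3C families, and they act through G protein-coupled receptors on the responding cell. CXC chemokines with the amino acids ELR before the cysteines, such as Cxcl1 and Cxcl5, attract neutrophils through CXCR2. Cxcl9 and Cxcl10 attract T cells through CXCR3 and are classical interferon targets, and Ccl2 and Ccl7 attract monocytes through CCR2. Fibroblasts are known to secrete several of these when NF-kappaB or interferon signalling is active, and Cxcl12 is a constitutive product of stromal cells.

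Starved fibroblasts had 12.1-fold more Cxcl10 signal than controls and 2.58-fold less Cxcl5. Ccl20 was 2.01-fold higher, Cx3cl1 1.65-fold and Ccl5 1.37-fold. Ccl2 was 1.90-fold lower, Cxcl1 1.86-fold and Cxcl12 1.39-fold. The values of Cx3cl1 and Cxcl12 are those of their brightest probe sets, and their dimmer probe sets did not pass. Ccl7 was 1.18-fold higher, a difference whose call and direction depended on the scaling of the arrays (below 0 when poly-A spike-ins set the scale), and Cxcl9 did not pass the test. In all 5 of the 10 members were higher, 4 lower and 1 not passed (limma with Benjamini-Hochberg adjustment over 12393 genes, adjusted p below 0.05). The same fit called 44.1% of all genes, 22.1% higher and 22.0% lower. The groups did not overlap for 9 of the 10 members, against 54.0% of all genes. A call together with a log2 difference of at least 1 was reached by 3 members (Cxcl10, Cxcl5 and Ccl20), against 4.38% of all genes. The median difference of the members was 0.04, beside −0.05 for all genes. In RNA from bulk cultures a change in the number of expressing cells and a change in RNA per cell cannot be told apart.

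**Figure D1:**
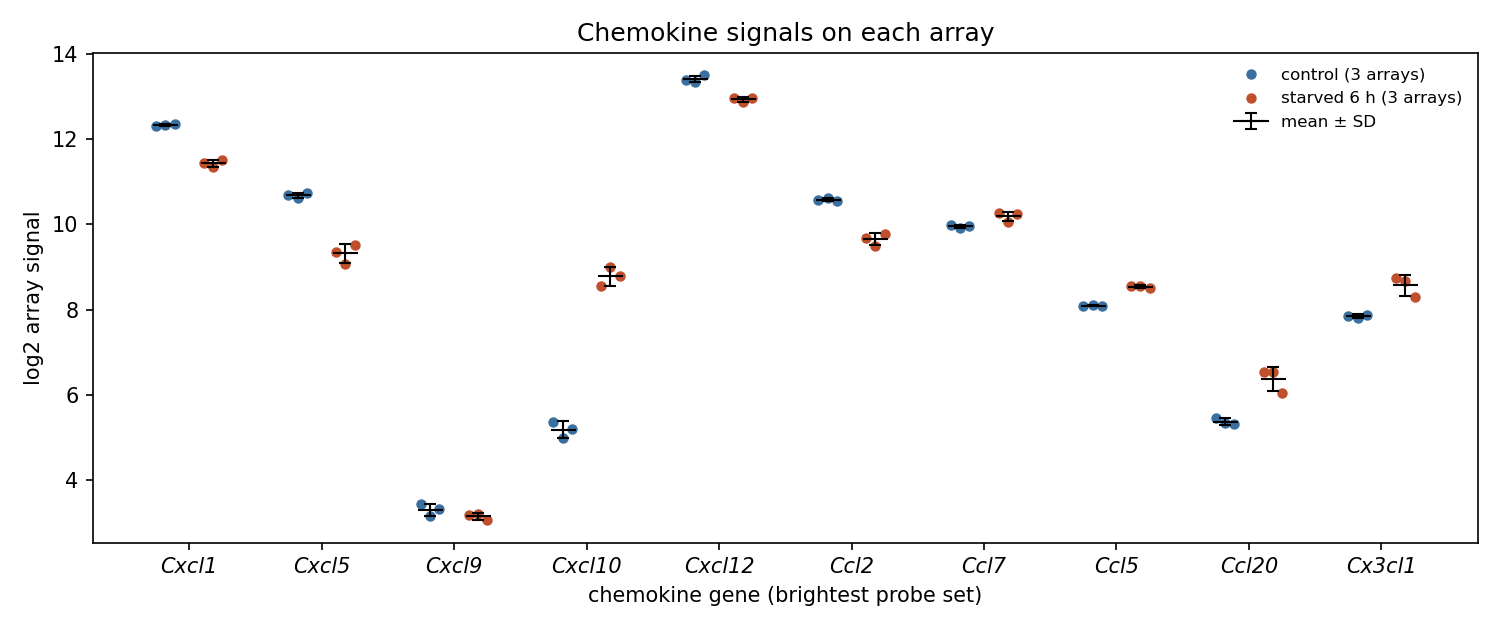
Log2 array signal (y axis) of the 10 chemokine genes (x axis, brightest probe set of each) on the 3 control arrays (blue) and the 3 starved arrays (red), with black bars for mean ± SD. The mean of Cxcl10 rose from 5.18 to 8.78, Cxcl5 fell from 10.68 to 9.32, and only Cxcl9 had overlapping groups; Ccl7 was the smallest rise and is below 0 when poly-A spike-ins set the scale.

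Levels are deposited log2 signals on which RMA, the method that made them, has fixed the distribution of each array. Differences are starved minus control, with the SE of the fit. Array medians lay between 6.73 and 6.81, and a typical gene had an SD of 0.08 within control and 0.10 within starved arrays. Of all calls, 2735 were higher and 2728 lower as deposited. Spike-ins are foreign RNAs added in known amounts, and arrays were also centred on them. On the scale of the hybridization spike-ins 1673 genes (13.5%) were higher and 6102 (49.2%) lower, and the members stood at 4 higher and 5 lower. On the scale of the poly-A spike-ins 860 genes (6.94%) were higher and 9321 (75.2%) lower, and the members stood at 3 higher and 5 lower. The median of all genes was −0.24 and −0.47 on these scales, each of which moves all genes by the same amount. Fibroblast markers were high, with a mean log2 level of 10.57 to 10.66 on control and 10.75 to 10.79 on starved arrays, though Thy1 (4.99 and 4.60) and Fap (4.90 and 4.44) were dim. Of these 14 markers 8 rose, 3 fell and 3 did not pass, where 22.1% of all genes were higher and 22.0% lower. On the poly-A spike-in scale 0 of the markers were higher and 7 lower. Macrophage and blood cell markers had a mean of 4.74 to 4.79 and 4.64 to 4.79, and their control levels ran from 3.16 (the leukocyte gene Ptprc) to 7.75 (Cd14). The macrophage genes Adgre1 and Csf1r stood at 3.38 and 6.14 in control and at 3.27 and 5.90 in starved cells. Of 13 such markers measured, Cd68 rose by 0.44, Cd14 and Coro1a fell (−0.46 and −0.24), and 10 did not pass. The calls of Cd68 and Coro1a were lost under some scalings. Of 8 endothelial markers 2 fell (Kdr and Pecam1, neither called with a further quantile normalization), and of 8 epithelial markers Cdh1 rose by 0.91. Beside these marker counts, 44.1% of all genes were called, a share that was higher among bright genes and lower among dim ones. The part of these markers in the chemokine values was not tested.

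Among the CXCR3 ligands, Cxcl10 rose and Cxcl9 did not pass. Cxcl10 gave 5.36, 4.98 and 5.20 on the control arrays and 8.56, 9.00 and 8.79 on the starved arrays. No control array came near any starved array. The difference was 3.60 (SE 0.13, adjusted p = 4.63e-08, limma), and 5 of 12393 genes had a larger rise. Its control signal was dim, brighter than 31.3% of genes, and RMA compresses folds of dim genes. Cxcl9 gave 3.43, 3.16 and 3.33 on control and 3.19, 3.20 and 3.05 on starved arrays. These values overlapped and lay near the bottom of the arrays, brighter than only 5.36% and 3.82% of genes, where a signal may hold no transcript. The difference was −0.16 (95% confidence interval −0.35 to 0.04, adjusted p = 0.176). Cxcl11, the third CXCR3 ligand, did not pass (−0.07) and was also dim (3.74 in control).

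The sequences upstream of Cxcl10 and Cxcl9 are shown because these genes share a receptor and are near neighbours, with 1 protein-coding gene between them. Cxcl10 rose, whereas Cxcl9 lay near the bottom of the arrays in both groups, so its response could not be read. The sequence upstream of Cxcl1 follows as that of a member that fell, and that of Ccl20 as one that rose. Each is the 250 bases before the annotated start, from RefSeq on GRCm38.p6, on the gene's own strand. Cxcl10 lies at chr5:92348890-92349139 (minus strand), Cxcl9 at chr5:92328080-92328329 (minus strand), Cxcl1 at chr5:90890995-90891244 (plus strand) and Ccl20 at chr1:83116516-83116765 (plus strand). Capitals mark matches on either strand to a core of the interferon-stimulated response element (GAAA, any 2 bases, then GAAA) or to the NF-kappaB consensus. That consensus is GGG, then A or G, any 2 bases, 2 bases that are each C or T, then CC.
Cxcl10: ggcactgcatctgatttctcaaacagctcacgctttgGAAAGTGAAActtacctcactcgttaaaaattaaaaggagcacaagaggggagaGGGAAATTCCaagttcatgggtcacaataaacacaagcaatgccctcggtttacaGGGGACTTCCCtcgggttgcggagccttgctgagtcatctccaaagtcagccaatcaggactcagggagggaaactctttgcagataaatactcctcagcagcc
Cxcl9: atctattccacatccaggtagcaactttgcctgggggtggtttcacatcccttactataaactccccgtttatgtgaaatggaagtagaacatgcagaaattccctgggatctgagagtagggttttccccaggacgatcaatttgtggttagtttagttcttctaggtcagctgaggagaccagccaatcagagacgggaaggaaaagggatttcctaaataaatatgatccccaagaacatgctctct
Cxcl1: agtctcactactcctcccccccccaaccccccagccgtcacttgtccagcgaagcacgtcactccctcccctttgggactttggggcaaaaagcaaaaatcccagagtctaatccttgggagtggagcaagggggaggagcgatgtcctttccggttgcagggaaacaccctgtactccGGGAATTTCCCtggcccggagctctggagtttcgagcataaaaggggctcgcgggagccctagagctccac
Ccl20: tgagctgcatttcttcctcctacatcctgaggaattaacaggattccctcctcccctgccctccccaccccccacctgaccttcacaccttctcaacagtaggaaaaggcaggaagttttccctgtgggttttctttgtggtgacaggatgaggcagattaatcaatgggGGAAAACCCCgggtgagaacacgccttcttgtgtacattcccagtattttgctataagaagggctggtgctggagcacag

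RefSeq upstream sequences were matched for 6 of the 10 members (Cxcl1, Cxcl9, Cxcl10, Cxcl12, Ccl20 and Cx3cl1), and not for Cxcl5, Ccl2, Ccl5 and Ccl7. The response element core was found in 1 of the 6, Cxcl10, as GAAAGTGAAA at 213 to 204 bases before the start, against 2.98% of all 32851 promoter windows of the same length. The NF-kappaB consensus was found in 3 of the 6, against 7.25% of all windows. Cxcl10 held GGGAAATTCC at 159 to 150 bases and overlapping matches in GGGGACTTCCC at 104 to 94 bases before the start. Cxcl1, which fell, held matches on both strands in GGGAATTTCCC at 71 to 61 bases, and Ccl20, which rose, a match on the opposite strand at 80 to 71 bases. The NF-kappaB letters were thus present in members of either direction, and Cxcl9 held neither motif in this window. The gggttttccc of Cxcl9 opens with GGG and closes with CC, but has T where the consensus requires A or G. The matches given are of letters and are not measured binding.

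The CXCR2 ligands fell. Cxcl1 gave 12.30, 12.32 and 12.35 on control arrays and 11.45, 11.34 and 11.50 on starved arrays. All starved arrays lay below all control arrays, by a mean of −0.89 (SE 0.07, adjusted p = 6.78e-06, limma). Cxcl5 gave 10.68, 10.63 and 10.74 on control and 9.36, 9.07 and 9.52 on starved arrays. Again the groups were apart, with a difference of −1.37 (SE 0.11, adjusted p = 6.32e-06), and 81 of 12393 genes fell further. The starved arrays spread more widely for Cxcl5 (SD 0.23) than the control arrays (SD 0.05).

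Cxcl12, the ligand of CXCR4 and of the scavenging receptor ACKR3, had probe sets that disagreed. The brighter probe set gave 13.38, 13.35 and 13.50 on control and 12.95, 12.87 and 12.97 on starved arrays, and the groups did not overlap. Its difference was −0.48 (SE 0.07, adjusted p = 0.000456). The dimmer probe set gave 12.56, 12.50 and 12.51 on control and 12.46, 12.46 and 12.51 on starved arrays. These overlapped, with a difference of −0.04 (95% confidence interval −0.20 to 0.11, adjusted p = 0.638 with every probe set tested on its own, where 40.9% were called). The highest value on any array was 14.59, and saturation was not tested.

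Ccl2 and Ccl7, neighbouring genes for monocyte chemoattractants, went apart. Ccl2 gave 10.58, 10.62 and 10.54 on control and 9.68, 9.50 and 9.77 on starved arrays. The groups were well separated, with a difference of −0.93 (SE 0.08, adjusted p = 1.47e-05, limma). Ccl7 gave 9.99, 9.90 and 9.95 on control and 10.26, 10.06 and 10.23 on starved arrays. The lowest starved array was only just above the highest control array, and the difference was 0.24 (SE 0.08, adjusted p = 0.0309). That call was lost without control replicate 1 (adjusted p = 0.0555), control replicate 2 (0.103), control replicate 3 (0.0747), starved replicate 1 (0.0794) or starved replicate 3 (0.0785). It was also lost with median centring, a further quantile normalization and either spike-in centring, and with the poly-A spike-ins the difference was −0.19 (adjusted p = 0.116).

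The remaining CC chemokines rose. Ccl5, which attracts T cells and monocytes, gave 8.08, 8.11 and 8.08 on control and 8.56, 8.56 and 8.50 on starved arrays. Both groups were tight, and the difference of 0.45 (SE 0.07, adjusted p = 0.000332, limma) was many times their SD (0.02 and 0.04). On the poly-A spike-in scale it was 0.02 (adjusted p = 0.829). Ccl20, the ligand of CCR6, gave 5.46, 5.34 and 5.31 on control and 6.54, 6.54 and 6.05 on starved arrays. Starved replicate 3 was lower than the other starved arrays but still above every control array, and the difference was 1.01 (SE 0.13, adjusted p = 0.000122). It was 1.17 without starved replicate 3, and Ccl20 remained called under every scaling tried (0.58 with the poly-A spike-ins).

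Cx3cl1, a membrane-bound chemokine that is shed by the proteases ADAM10 and ADAM17, rose by its brightest probe set alone. That probe set gave 7.85, 7.80 and 7.88 on control and 8.74, 8.67 and 8.29 on starved arrays. All starved arrays were higher, with starved replicate 3 the lowest of them, and the difference was 0.72 (SE 0.11, adjusted p = 0.000471, limma). The next probe set gave 7.88, 7.82 and 7.76 on control and 7.71, 7.96 and 8.04 on starved arrays. Its groups overlapped (difference 0.08, 95% confidence interval −0.13 to 0.30, adjusted p = 0.536 in the fit over every probe set). The dimmest gave 4.36, 4.41 and 4.25 on control and 3.92, 4.63 and 4.95 on starved arrays, which overlapped as well (0.16, interval −0.33 to 0.64). The mean of the 3 probe sets was higher by 0.32 (adjusted p = 0.0154). The transcript parts that these probe sets cover were not analysed here.

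**Figure D2:**
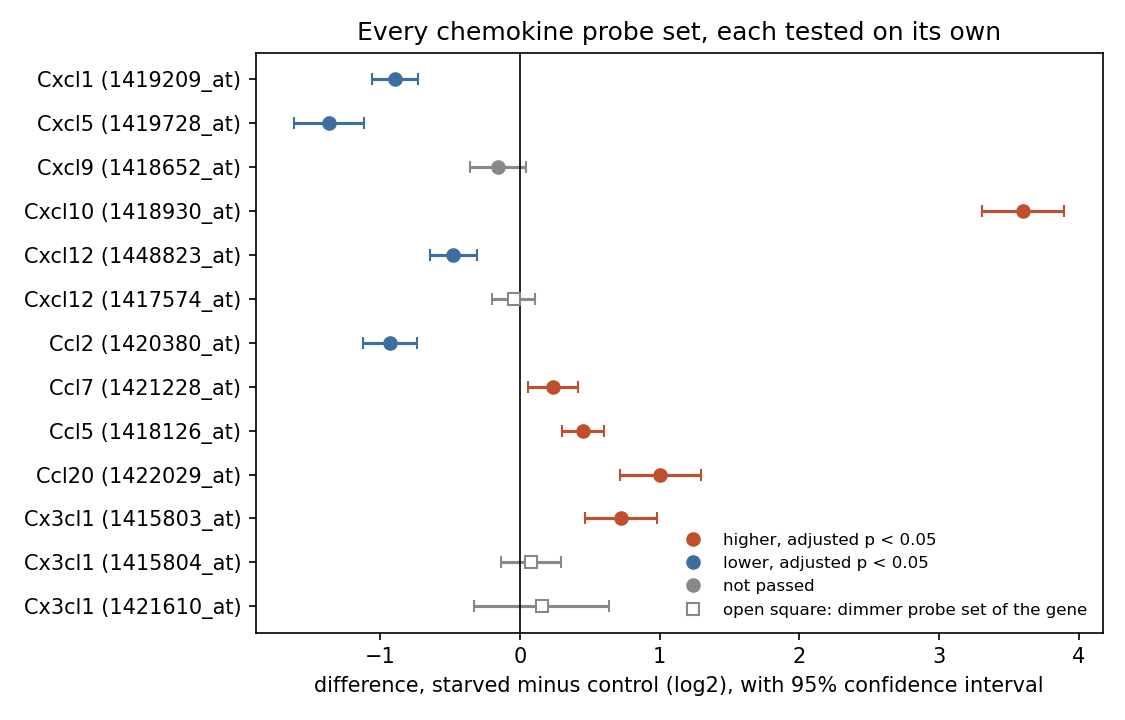
Difference between starved and control arrays (x axis, log2, with 95% confidence interval) for each of the 13 chemokine probe sets (y axis), from a fit over all 20380 probe sets. Filled circles are the brightest probe set of a gene and open squares the dimmer ones; the dimmer probe sets of Cxcl12 and Cx3cl1 lay near 0 (−0.04, 0.08 and 0.16), while the brightest stood at −0.48 and 0.72. Ccl7 (0.24) is below 0 when poly-A spike-ins set the scale.

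Members that share a receptor were also set against each other within each array, where any shift that adds the same log2 amount to every gene of an array cancels. No ratio is given for Cxcl10 and Cxcl9, since Cxcl9 lay at the bottom of the arrays. The ratio of Ccl7 to Ccl2 was 2.24-fold higher in starved cells (log2 change 1.16, SD 0.07 in either group). Ccl2 therefore fell relative to Ccl7 whatever single value per array was used for centring. The ratio of Cxcl1 to Cxcl5 was 1.39-fold higher (log2 change 0.47, SD 0.04 and 0.15), as Cxcl5 fell further. All starved arrays lay above all control arrays in both pairs. The pairs were chosen after values were seen, so these ratios are a description with no test.

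**Figure D3:**
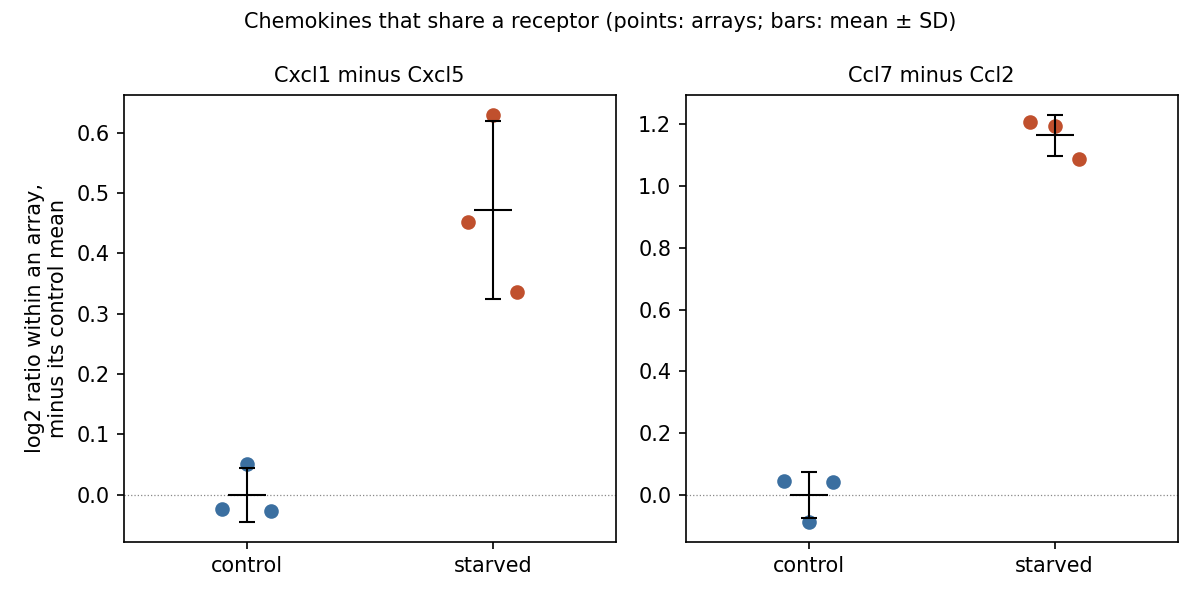
Log2 ratio of chemokines that share a receptor within each array (y axis, minus the mean of the control arrays) for control (blue) and starved (red) arrays, 3 each, with bars for mean ± SD and a separate y scale in each panel. The ratio was higher in starved cells by 0.47 for Cxcl1 to Cxcl5 and by 1.16 for Ccl7 to Ccl2, with no overlap between the groups.

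The direction of most members did not depend on how the arrays were scaled. Under the deposited scaling, median centring, a further quantile normalization and both spike-in centrings, Cxcl10, Ccl20 and Cx3cl1 stayed higher and Cxcl1, Cxcl5, Cxcl12 and Ccl2 stayed lower, each with an adjusted p below 0.05. These are values of the brightest probe sets, and the dimmer ones of Cxcl12 and Cx3cl1 did not pass as deposited. With the poly-A spike-ins the difference of Cxcl10 was 3.17, that of Cxcl5 −1.79, that of Ccl2 −1.36 and that of Cxcl1 −1.32. Cxcl9, not passed as deposited, was called lower with the hybridization (−0.34) and poly-A spike-ins (−0.58).

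**Figure D4:**
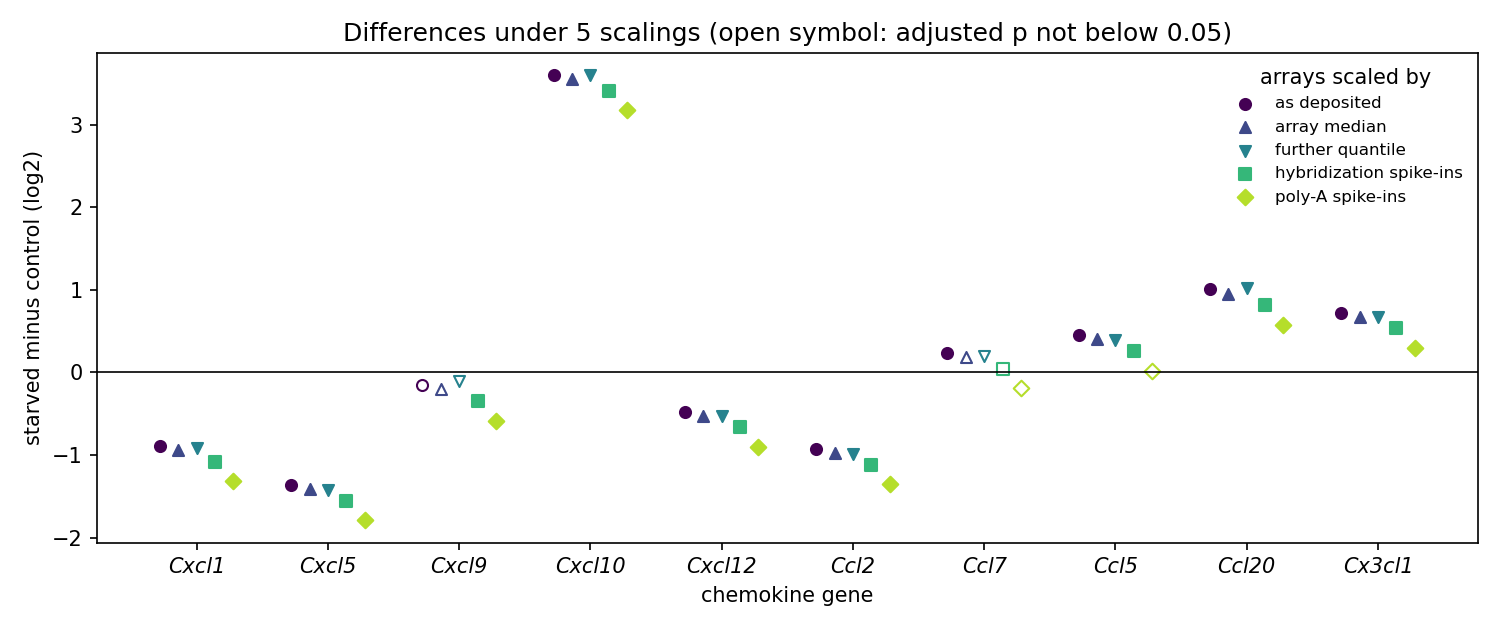
Difference between starved and control arrays (y axis, log2) of the 10 chemokines (x axis, brightest probe set of each) under 5 scalings of the arrays. Open symbols mark an adjusted p not below 0.05. Ccl7 crossed 0 (0.24 as deposited, −0.19 with poly-A spike-ins) and Ccl5 came close to it (0.45 and 0.02), and the other members kept their sign.

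Of the other chemokines, 24 of 28 listed genes were measured, of which 2 were higher, 5 lower and 17 not passed, where 44.1% of all genes were called. They were dim (median control level 5.03, beside 7.18 for all genes), and dim genes were called less often. Their median difference was −0.12, and on the poly-A spike-in scale 1 was higher and 22 lower, beside 6.94% and 75.2% of all genes. Ppbp, a platelet-type CXC chemokine that also binds CXCR2 after processing, fell furthest. It gave 8.03, 7.85 and 7.91 on control and 5.79, 5.72 and 5.58 on starved arrays (−2.23, SE 0.08, adjusted p = 5.64e-08, limma), and no arrays overlapped. Ccl9, a ligand of CCR1, fell by 1.02 (SE 0.08, adjusted p = 4.44e-06), and its dimmer probe set lay at −1.09. The CXCR2 ligand Cxcl2 fell by 0.48, platelet factor Pf4 by 0.37 and Ccl1 by 0.30. Ccl8 rose from 5.63 to 6.45 (0.81, SE 0.10, adjusted p = 9.47e-05). Ccl27a rose by 0.53, but its probe set is of a type that can bind other transcripts and the gene has near-identical copies, so this value is uncertain, and with the poly-A spike-ins it was 0.10 (adjusted p = 0.359). The call of Ccl1 was lost with a further quantile normalization (adjusted p = 0.0553). Cxcl16 and Cxcl13 did not pass by their brightest probe sets (−0.14 and 0.05), but their dimmer ones did when tested on their own. Those differences were 0.47 (adjusted p = 0.00509, limma over every probe set) and −0.29 (0.00948). The dimmer probe set of Cxcl16 is also of a type that can bind other transcripts.

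The genes also differed along the genome. In the RefSeq order of protein-coding genes Cxcl5, Ppbp, Pf4, Cxcl3, Cxcl15, Cxcl1 and Cxcl2 follow each other without another gene between them. Of the 6 of these that were measured 5 fell (Cxcl5, Ppbp, Pf4, Cxcl1 and Cxcl2) and Cxcl15 did not pass (−0.15). Over all genes 22.0% were called lower and 22.1% higher. Ccl2, Ccl7, Ccl11, Ccl12, Ccl8 and Ccl1 also follow each other directly, and there the members went both ways. Ccl2 and Ccl1 fell, Ccl8 rose, Ccl11 (0.02) and Ccl12 (−0.20) did not pass, and Ccl7 was called higher in the deposited scaling only, as above. Ccl5 (0.45) has Ccl9 (−1.02) as its next gene. Cx3cl1 (0.72) lies between Ccl22 (−0.20) and Ccl17 (0.11), neither of which passed. These neighbourhoods were looked at after values were seen and were not tested.

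Receptors for these ligands were mostly dim in the fibroblasts, with a median control level of 4.22. Of 21 measured receptors 0 rose, 5 fell and 16 did not pass, where 44.1% of all genes were called. With the dimmest 40% of genes left out, 4886 of 7436 were called, so the share among dim genes was lower. On the poly-A spike-in scale all 21 were lower, beside 75.2% of all genes. The median of the receptors was −0.14 as deposited. With a further quantile normalization 2 were called higher, Ccr6 at 0.28 and Xcr1 at 0.19, and 3 lower. Ackr3, which binds Cxcl12 and removes it, fell from 10.34, 10.30 and 10.37 to 9.46, 9.61 and 9.60 (−0.78, SE 0.07, adjusted p = 1.74e-05, limma). Its only probe set is of a type that can bind other transcripts. The signalling receptor of Cxcl12, Cxcr4, was near the bottom of the arrays (3.52 and 3.30) and did not pass (adjusted p = 0.106). The others that fell were dim and moved little, with Cxcr3 at −0.33, Ackr4 at −0.31, Ackr1 at −0.27 and Cx3cr1 at −0.23. A dimmer probe set of Cx3cr1 did not pass (0.08, adjusted p = 0.534, limma over every probe set). The calls of Ackr4 and Cx3cr1 were lost with a further quantile normalization. Of the main receptors of the falling ligands, Cxcr2 (−0.14) and Ccr2 (0.03) did not pass.

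**Figure D5:**
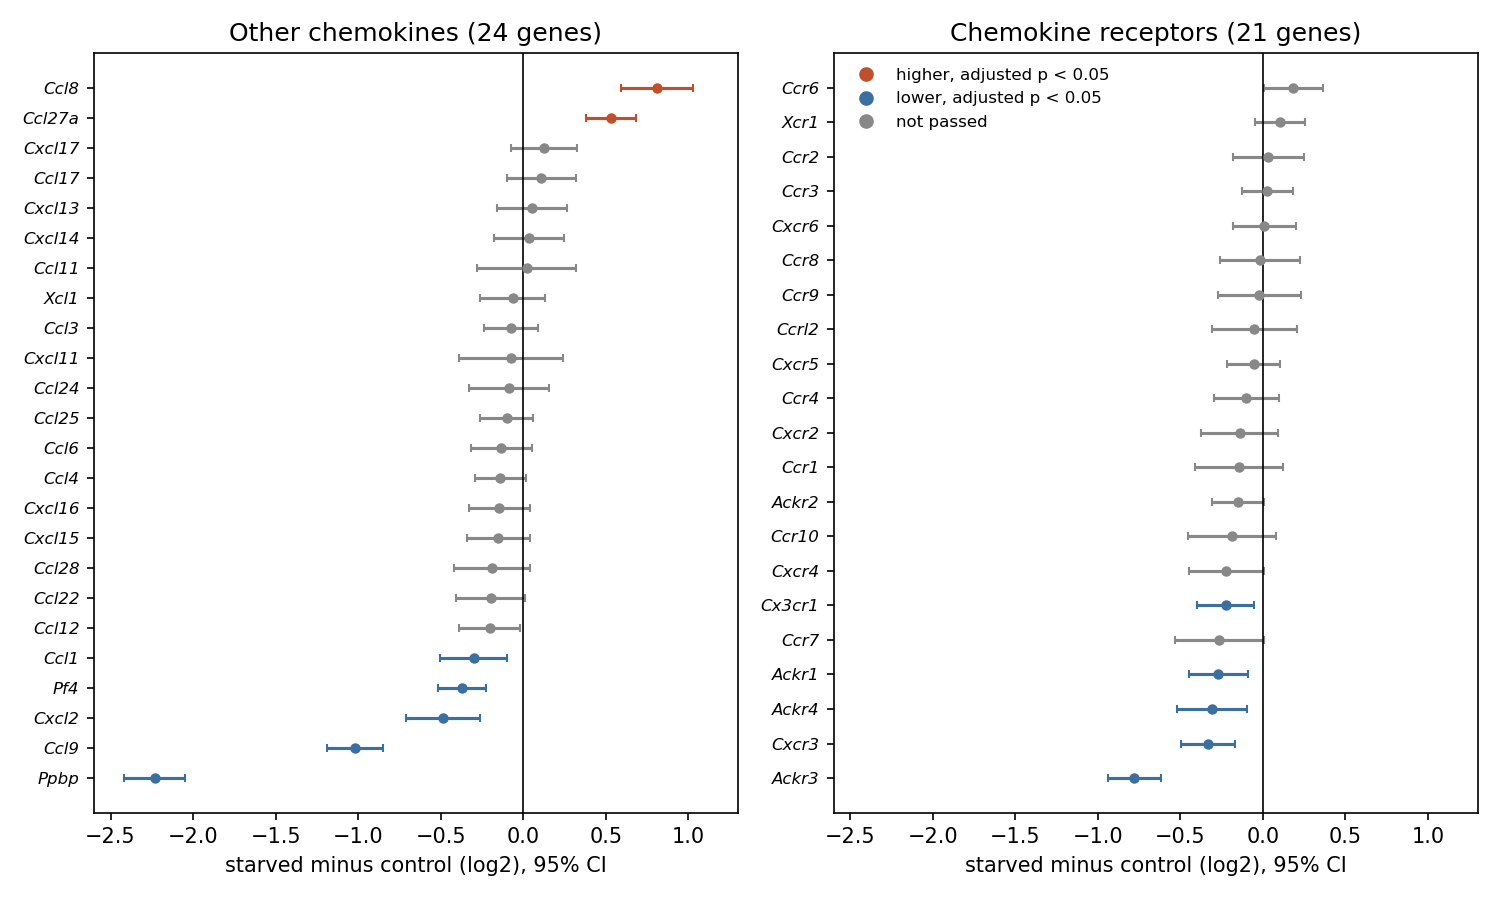
Difference between starved and control arrays (x axis, log2, with 95% confidence interval) for the 24 other chemokines and the 21 chemokine receptors measured (y axes, ordered by difference), red where higher and blue where lower at an adjusted p below 0.05 in the deposited scaling. Ppbp at −2.23 and Ccl9 at −1.02 were the lowest ligands, Ccl8 at 0.81 the highest, and Ackr3 at −0.78 the lowest receptor. Calls of most receptors and of Ccl27a change with the scaling, while Ackr3, Cxcr3 and Ackr1 were called lower under every scaling tried.

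NF-kappaB factors carry inflammatory signals to many chemokine promoters. Of 14 measured factors and inhibitors 6 rose, 0 fell and 8 did not pass. That count of calls is close to the 44.1% of all genes, of which 22.1% were higher and 22.0% lower. The median of the list was 0.20, and no test over the list was made. On the poly-A spike-in scale 5 were higher and 7 lower, beside 6.94% and 75.2% of all genes. Relb, a subunit of the non-canonical NF-kappaB dimer, gave 6.86, 6.91 and 6.96 on control and 9.18, 9.08 and 8.72 on starved arrays (2.08, SE 0.11, adjusted p = 6.13e-07, limma). The kinase regulator Ikbkg rose by 1.22 and the transactivating subunit Rela by 0.70. The inhibitor Nfkbia rose by 0.35 (adjusted p = 0.00244), but it was not called with either spike-in centring (−0.08 with poly-A). Nfkb2 (1.82) and Tnip1 (0.71) complete the list of those that rose, and a second probe set of Nfkb2 did not pass (−0.07). That second probe set was the brighter in control arrays (8.01 against 7.53), so the choice of the first rested on its starved signal (9.36). The second is, like that of Ccl27a, of a type that can bind other transcripts.

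Of 19 measured genes of interferon signalling and IRF factors 11 rose, 2 fell and 6 did not pass, beside 44.1% of all genes called. The median was 0.32. On the poly-A spike-in scale 6 were higher and 8 lower, beside 6.94% and 75.2% of all genes. Usp18, a protease that removes ISG15 from proteins and restrains the interferon receptor, rose by 3.72 (SE 0.12, adjusted p = 2.36e-08, limma). The interferon regulatory factor Irf7 gave 6.16, 5.90 and 6.25 on control and 8.74, 8.81 and 8.73 on starved arrays (2.66, SE 0.09), and Irf1 rose by 1.06. The signalling inhibitor Socs3 fell by 0.54, and the dim Irf8 by 0.22, a call lost with a further quantile normalization (adjusted p = 0.222). Of 12 receptors and adaptors through which cytokines and microbial products induce chemokines 3 rose, 2 fell and 7 did not pass. That count of calls is close to the 44.1% over all genes, and the median was 0.10. With the poly-A spike-ins 2 were higher and 9 lower, beside 6.94% and 75.2% of all genes. Tlr2, a receptor for bacterial lipoproteins, rose by 1.02 and the IL-1 receptor subunit Il1rap by 0.52, whereas Tnfrsf1b fell by 0.40 and Il1r1 by 0.23. The rise of Il1rap lost its call with the poly-A spike-ins (0.10).

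Many chemokine transcripts carry AU-rich elements that control their decay. Of 10 measured decay and stability factors 5 rose, 2 fell and 3 did not pass, against 44.1% called over all genes. The median was 0.17. On the poly-A spike-in scale 3 were higher and 5 lower, beside 6.94% and 75.2% of all genes. Zfp36, which binds AU-rich elements and promotes decay, gave 7.16, 6.91 and 7.26 on control and 8.29, 8.39 and 8.22 on starved arrays (1.20, SE 0.10, adjusted p = 7.89e-06, limma). Its relative Zfp36l1 rose by 0.67. The AU-rich binding protein Hnrnpd fell by 0.78 and the stabilising protein Elavl1 by 0.50. Of 13 genes that process chemokines or make the heparan sulfate that retains them 2 rose, 6 fell and 5 did not pass. Again 44.1% were called over all genes, and the median of the list was −0.18. With the poly-A spike-ins 0 of these were higher and 11 lower, beside 6.94% and 75.2% of all genes. The Cx3cl1 sheddases Adam10 and Adam17 fell by 0.64 and 0.37, and the heparan sulfate epimerase Glce by 0.66. Mmp2 rose by 0.34 and Ext1 by 0.21, but neither call held with spike-in centring (−0.09 and −0.21 with poly-A). The chemokine-trimming protease Dpp4 was dim and did not pass (3.73 and 3.79, adjusted p = 0.604).

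The genes with profiles most like Cxcl10, by Euclidean distance between log2 profiles centred on their mean over the 6 arrays, were Usp18 (distance 0.43), Rtp4 (0.48) and Irgm2 (0.67). Their differences were 3.72, 3.55 and 3.11. Those most like Cxcl5 were Ndufaf4 (0.24), Pno1 (0.24) and Ivns1abp (0.24), with differences of −1.47, −1.25 and −1.36. With only control and starved arrays this likeness mostly reflects a similar size of difference.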

How the data were processed

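Total RNA of 6 samples was labelled with biotin and hybridised to short-oligonucleotide arrays, 1 sample per array, per the labels' protocols. The deposited table holds log2 values per probe set, made by the authors with affy and RMA per the submitters' processing notes, with versions not given in the sources used here. This method equalises the distribution of the arrays, so a change in total messenger RNA per cell is removed, and it compresses dim signals. Arrays hold no read depth, and their number limits the precision.

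Gene symbols came from the annotation of the array platform. Of 22690 probe sets 20380 listed 1 gene, 691 several and 1555 none, the other 64 being controls, and only those with 1 gene were tested. Identifiers of 20351 were found in a RefSeq table, and 0 symbols needed updating. A gene took its brightest probe set, which left 12393 genes, with no filter on dim ones. Groups came from the sample titles. The fit used limma 3.58.1 in R 4.3.3 (lmFit, eBayes, two-sided, Benjamini-Hochberg over all genes, threshold 0.05) and was tested on simulated data. Python 3.11.15, pandas 2.3.3 and matplotlib 3.10.9 made tables and plots.

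Members and gene lists, written from textbook knowledge, were chosen with earlier results of these data known. Named genes are all members, up to 2 risen and 2 fallen genes with the smallest adjusted p per list, all called other chemokines and receptors, and a fixed set (Irf1, Irf7, Rela, Nfkbia, Cxcr4, Ackr3, Zfp36, Dpp4, Adam17; Nfkb1 was not analysed here). For the members with the largest rise and fall, the 3 genes of most similar profile were added. Cxcl11, Cxcl13, Cxcl15, Cxcl16, Ccl11, Ccl12, Ccl17, Ccl22, Cxcr2, Ccr2, Ccr6, Xcr1, Nfkb2, Tnip1, Ptprc, Adgre1 and Csf1r were added after their values were seen. Alternatives were other uses of probe sets, a filter on the dimmest 40% of genes, 4 other scalings, other variance models, array weights, a replicate block, leaving out each array, and stricter thresholds.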

Additional observations from a re-analysis of the deposited data

How the results depend on the processing

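The call count over all genes was 5463, and 10181 on the poly-A spike-in scale and 543 with a log2 difference of at least 1 required. Of the members 9 were called, and 3 when a log2 difference of at least 1 was required. In every other setting 8 or 9 members were called. Leaving out each array in turn gave 4541 to 5317 genes and 8 to 9 members. Over 168 alternative values of single members 156 kept their direction and their side of the threshold, 9 lost the call, 2 gained it and 1 reversed. In several settings a member kept its deposited difference, so only its adjusted p could change. These were the other variance model, the replicate block, the dim filter, the fit over every probe set and the exclusion of probe sets that can bind several transcripts. The same held for the probe set mean where a gene had 1 probe set. The reversed value was that of Ccl7 with the poly-A spike-ins (−0.19), where each array is shifted by its own spike-in mean; those spike-ins were brighter by 0.43 on starved arrays. The lost calls were 8 of Ccl7 and 1 of Ccl5, and the gained ones were those of Cxcl9 with the spike-in centrings. Cxcl9 and Ccl20 had no value when the dimmest 40% of genes were left out. The replicate number as a block gave 5274 genes and 9 members. Same-numbered arrays did not deviate together (correlations of their deviations −0.00, −0.02 and 0.00). With 3 normalized arrays per group this cannot show whether same-numbered samples were prepared together, so pairing remains unknown. Dim signals limit Cxcl9, Cxcl11 and most receptors.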
